A study of Mus musculus with 6 samples.

Results

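The genes described here encode the hormones of the anterior pituitary together with a transcription factor and a receptor of its cells. They are Gh, Prl, Pomc, Tshb, Cga, Lhb, Fshb, Pou1f1 and Ghrhr, 9 of the 53801 genes in the brain count table, and they were chosen by gene name. RNA had been sequenced from brain hemispheres of adult C57BL/6 mice about 70 weeks old, from 3 Bahd1-WT mice (genotype Bahd1+/+) and 3 Bahd1-KO mice (genotype Bahd1-/-). BAHD1 is a protein involved in the formation of repressive chromatin, and Bahd1-KO mice carried the homozygous knockout with no other allele or agent named in the labels. Each library came from 1 hemisphere, so a level is an average over every cell type in that sample.

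The anterior pituitary is an endocrine gland that hangs below the hypothalamus and is not part of the brain itself. Its somatotrophs secrete growth hormone (Gh), its lactotrophs prolactin (Prl) and its corticotrophs adrenocorticotropin, which is cut from the precursor encoded by Pomc. Thyrotrophs and gonadotrophs secrete glycoprotein hormones in which the shared alpha subunit (Cga) is joined to a specific beta subunit, Tshb for thyrotropin, Lhb for luteinizing hormone or Fshb for follicle-stimulating hormone. POU1F1 is the transcription factor of the somatotroph, lactotroph and thyrotroph lineages, and Ghrhr is the somatotroph receptor for hypothalamic growth hormone-releasing hormone. Of these genes, Pomc is also well known as a gene of brain neurons, in the arcuate nucleus of the hypothalamus.

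The promoter of Prl is a known target of POU1F1, and the sequences below are shown because Prl and Pou1f1 were the genes whose promoter held the letters that POU1F1 prefers. Each run is the 250 bases before the annotated start, 5′ to 3′, from RefSeq on build GRCm38.p6. Capitals mark matches to TATNCAT on either strand. The Prl window is chr13:27057320-27057569 (plus strand), the Pou1f1 window is chr16:65520262-65520511 (plus strand), and the Pomc window, chr12:3954695-3954944 (plus strand), is shown for contrast as that of a corticotroph gene without a match.
Prl: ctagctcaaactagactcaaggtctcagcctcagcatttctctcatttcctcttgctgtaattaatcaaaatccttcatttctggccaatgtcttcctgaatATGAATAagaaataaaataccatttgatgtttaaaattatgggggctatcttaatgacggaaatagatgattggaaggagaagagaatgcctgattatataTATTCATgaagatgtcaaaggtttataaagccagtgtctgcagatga
Pou1f1: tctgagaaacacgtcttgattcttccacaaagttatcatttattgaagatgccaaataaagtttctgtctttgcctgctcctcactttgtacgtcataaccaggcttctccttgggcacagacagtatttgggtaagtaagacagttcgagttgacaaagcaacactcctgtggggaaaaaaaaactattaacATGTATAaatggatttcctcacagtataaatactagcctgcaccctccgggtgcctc
Pomc: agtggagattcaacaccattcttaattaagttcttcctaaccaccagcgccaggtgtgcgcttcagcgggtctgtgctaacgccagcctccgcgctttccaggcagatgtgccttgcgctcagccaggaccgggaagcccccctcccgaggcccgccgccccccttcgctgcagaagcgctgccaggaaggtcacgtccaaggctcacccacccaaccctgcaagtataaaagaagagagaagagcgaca
The Prl window held 2 matches, at -148 on the minus strand and at -47 on the plus strand, counted from the start. The Pou1f1 window held 1 match, at -57 on the minus strand, and a promoter at a downstream start of the same gene held none. RefSeq promoters were matched for 7 of the 9 genes, all but Gh and Ghrhr, and 2 of these 7 genes held the motif. It occurred in 7.92% of 32851 mouse promoters of that length. The PITX letters TAATCC (6.25% of promoters) were in none of the 7 genes at the first listed start, and the NR5A letters AAGGTCA (4.08%) were in Pomc and Lhb. None of the matches marked in capitals overlapped another motif. These matches are a description of the sequence and not of binding.

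The targeted gene was checked first. Bahd1 reached 1383, 844 and 1099 counts in the Bahd1-WT mice (replicates 1, 2 and 3) against 0, 14 and 1 in Bahd1-KO replicates 1, 2 and 3. Its log2 fold change was -7.67 (SE 0.64, adjusted p = 0.0135 in edgeR's quasi-likelihood test). Total counts ran from 42297150 (Bahd1-KO replicate 1) to 93557948 (Bahd1-KO replicate 2), so that 3 counts, taken here as the floor, corresponded to between 0.0315 and 0.0690 CPM, the count scaled to a common library total after TMM normalization. Sst and Npy, peptides of forebrain interneurons, had at least 3342 and 2171 counts in each library. Bahd1-KO replicate 2 stood apart from the other libraries in several gene groups, among them red cell, muscle and hypothalamic genes, whose values are given beside the results they touch.

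The summed level of the 9 pituitary genes was highest in 2 libraries, 1 of each genotype. It was 19.7 CPM in Bahd1-WT replicate 1 and 43.1 CPM in Bahd1-KO replicate 3. It was 0.632 and 0.205 CPM in Bahd1-WT replicates 2 and 3, 0.184 CPM in Bahd1-KO replicate 1 and 3.95 CPM in Bahd1-KO replicate 2, where most of the sum was Pomc. All 9 genes were above 3 counts in Bahd1-WT replicate 1 and in Bahd1-KO replicate 3, against 2 and 1 genes in the other Bahd1-WT libraries and 0 and 5 in Bahd1-KO replicates 1 and 2. Conversely, 7 of the 9 genes had 0 counts in Bahd1-WT replicate 3 and 5 had 0 counts in Bahd1-KO replicate 1. In such bulk samples, fewer cells of a type and less RNA per cell cannot be told apart.

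**Figure D1:**
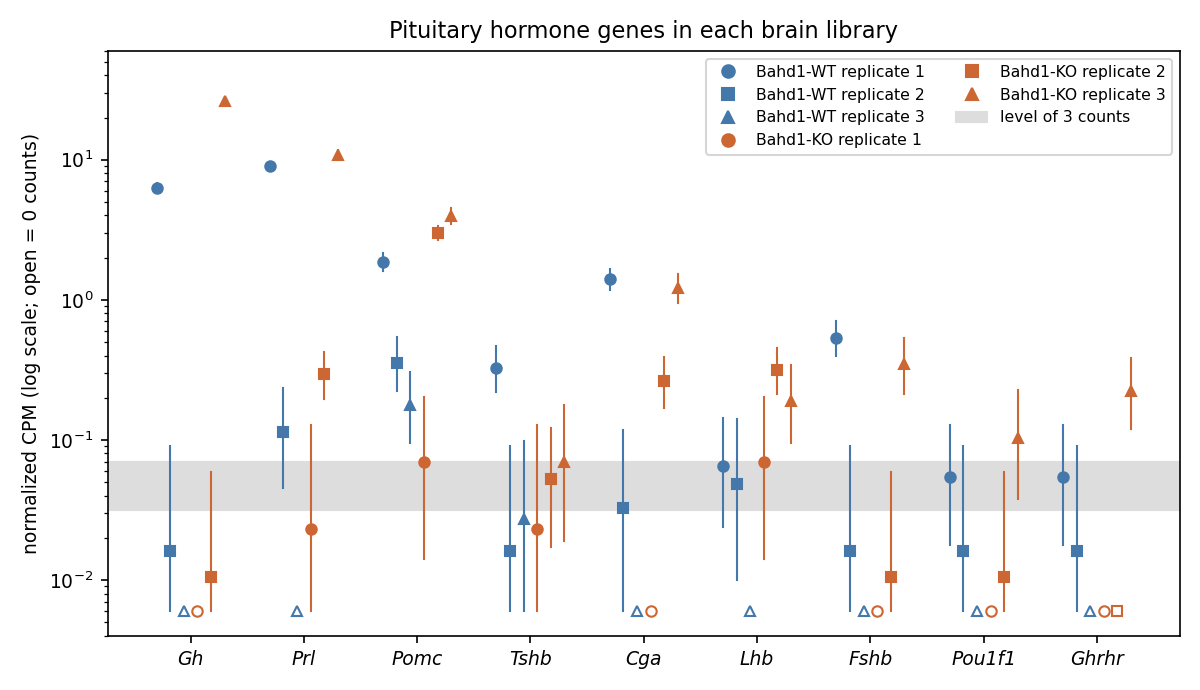
Normalized CPM (y axis, log scale) of the 9 pituitary genes in each library, with 95% exact intervals of counting error that are cut at the lower edge of the plot. Blue marks Bahd1-WT and orange Bahd1-KO, open symbols are libraries at 0 counts and the grey band is the level of 3 counts. Bahd1-WT replicate 1 and Bahd1-KO replicate 3 lie highest for Gh, Prl, Cga, Fshb, Pou1f1 and Ghrhr, while Pomc is also high in Bahd1-KO replicate 2.

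Growth hormone showed wide differences between single libraries, the widest of the 9 genes among Bahd1-KO mice on the log2(CPM + 0.5) scale. Gh (chr11:106300271-106301865, minus strand, build GRCm38) reached 579, 1 and 0 counts in the Bahd1-WT mice (replicates 1 to 3) against 0, 1 and 1517 across Bahd1-KO mice (replicates 1 to 3). These counts correspond to 6.33, 0.0162 and 0 CPM in Bahd1-WT against 0, 0.0105 and 26.2 CPM in Bahd1-KO. A single library of each genotype thus held nearly all the Gh reads, and the genotypes overlapped. Among Bahd1-WT mice the highest library was at least 155-fold above the lowest, and among Bahd1-KO mice at least 380-fold, both against a floor of 3 counts per library. The means were 2.11 ± 3.65 CPM in Bahd1-WT and 8.74 ± 15.1 CPM in Bahd1-KO (SD, n = 3 each), and the log2 fold change of 2.03 (SE 2.26) was smaller than its error (adjusted p = 0.550, edgeR's quasi-likelihood test).

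Prolactin followed growth hormone. Prl (chr13:27057570-27065205, plus strand), whose promoter is printed above, had 829, 7 and 0 counts across Bahd1-WT mice against 1, 28 and 627 across Bahd1-KO mice, in replicate order. Its levels were 9.06, 0.113 and 0 CPM across Bahd1-WT mice against 0.0230, 0.294 and 10.8 CPM across Bahd1-KO mice. The same libraries were high as for Gh, with a lower level in Bahd1-WT replicate 2 and Bahd1-KO replicate 2, and the genotypes overlapped. The highest Bahd1-WT library was 221-fold above the lowest with its 0 counts set to 3 (lower 95% limit 180). In Bahd1-KO the ratio was 471 (95% interval 84.3 to 18641, from 627 against 1 count). The group means of 3.06 ± 5.20 and 3.72 ± 6.16 CPM (SD, n = 3 each) differed by a log2 fold change of 0.27 (SE 1.89, adjusted p = 0.934, edgeR's quasi-likelihood test).

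Pomc differed from both in its distribution over the libraries. The gene (chr12:3954951-3960642, plus strand) had 171, 22 and 13 counts across Bahd1-WT mice against 3, 285 and 230 across Bahd1-KO mice, and it was the only one of the 9 with reads in every library apart from Tshb. Its levels were 1.87, 0.356 and 0.177 CPM across Bahd1-WT mice against 0.0690, 2.99 and 3.97 CPM across Bahd1-KO mice. Bahd1-KO replicates 2 and 3 lay above every Bahd1-WT library while Bahd1-KO replicate 1 lay below them all, so the genotypes overlapped. The ratio of the highest to the lowest library was 10.5 among Bahd1-WT mice (95% interval 6.00 to 20.2) and 57.6 among Bahd1-KO mice (19.5 to 281). The log2 fold change was 1.54 (SE 1.09, adjusted p = 0.343, edgeR's quasi-likelihood test), with means of 0.801 ± 0.929 CPM in Bahd1-WT and 2.34 ± 2.03 CPM in Bahd1-KO (SD, n = 3 each). It was 0.26 (adjusted p = 0.903, same test) with an offset for GC content and length.

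In Bahd1-KO replicate 2, Pomc was not accompanied by Gh. Its level there was 0.753 of that in Bahd1-KO replicate 3 (95% interval 0.631 to 0.900), whereas the same ratio was 0.000401 for Gh and 0.0271 for Prl. Per kilobase of annotated exon, the ratio of Pomc to Prl was 10.9 in Bahd1-KO replicate 2 (7.36 to 16.7), against 0.220 in Bahd1-WT replicate 1 (0.186 to 0.260) and 0.392 in Bahd1-KO replicate 3 (0.335 to 0.457). The intervals cover counting error only and do not overlap, so the makeup of the pituitary gene reads differed between these libraries by more than counting error. In Bahd1-WT replicate 2, where the level was low, the Pomc to Prl ratio was 3.36 (1.39 to 9.31).

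Among the glycoprotein hormone subunits, the shared alpha subunit had the highest level in Bahd1-WT replicate 1 and Bahd1-KO replicate 3, but not in the other libraries, where counts were low. Cga (chr4:34893779-34907370, plus strand) had 128, 2 and 0 counts across Bahd1-WT mice against 0, 25 and 70 across Bahd1-KO mice, or 1.40, 0.0324 and 0 CPM against 0, 0.263 and 1.21 CPM. Bahd1-WT replicate 1 and Bahd1-KO replicate 3 were again the highest, with Bahd1-KO replicate 2 between these and the rest. The spread within a genotype was at least 34.2-fold in Bahd1-WT and at least 17.5-fold in Bahd1-KO, and the group means were 0.477 ± 0.798 and 0.491 ± 0.636 CPM (SD, n = 3 each), with a log2 fold change of -0.00 (SE 1.35, adjusted p = 0.999, edgeR's quasi-likelihood test). The sign of this value has no meaning, since it turned with the normalization.

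The beta subunits were rarer and did not share 1 pattern. Fshb (chr2:107056140-107059656, minus strand) had 49, 1 and 0 counts across Bahd1-WT mice against 0, 1 and 20 across Bahd1-KO mice, the same 2 high libraries as Gh and Prl, with levels of 0.535 and 0.345 CPM there. Its log2 fold change was -0.75 (SE 1.50, adjusted p = 0.751, edgeR's quasi-likelihood test). Tshb (chr3:102775465-102782718, minus strand) had 30, 1 and 2 counts across Bahd1-WT mice against 1, 5 and 4 across Bahd1-KO mice, so that Bahd1-WT replicate 1 alone stood out, at 0.328 CPM. The genotypes overlapped for Tshb, and its log2 fold change was -1.36 (SE 1.04, adjusted p = 0.378, edgeR's quasi-likelihood test), or -0.92 (adjusted p = 0.654, same test) with an offset for GC content and length.

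Lhb was the exception among the 9 in the comparison of genotypes. The gene (chr7:45420820-45421897, plus strand) had 6, 3 and 0 counts across Bahd1-WT mice against 3, 30 and 11 across Bahd1-KO mice, or 0.0656, 0.0486 and 0 CPM against 0.0690, 0.315 and 0.190 CPM. Every Bahd1-KO library was above every Bahd1-WT library, but the nearest pair differed by 0.0690 against 0.0656 CPM, from 3 and 6 counts. Of all genes tested, 20.6% had non-overlapping libraries with Bahd1-KO higher. The log2 fold change was 2.32 (SE 0.82, unadjusted p = 0.0206, adjusted p = 0.103, edgeR's quasi-likelihood test), so Lhb did not pass the threshold of 0.05 with all libraries. It passed without Bahd1-KO replicate 1 (log2 fold change 2.70, adjusted p = 0.031), a setting in which 16.8% of all genes did, and its log2 fold change was 0.62 (adjusted p = 0.679, edgeR's quasi-likelihood test) with an offset for GC content and length.

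The annotated exons of Lhb share 138 bases with exons of Ruvbl2, a gene for a widely expressed ATPase that lies on the opposite strand. Ruvbl2 had 5.16, 3.60 and 5.28 CPM across Bahd1-WT mice against 9.38, 29.8 and 11.5 CPM across Bahd1-KO mice, with the highest level in Bahd1-KO replicate 2, as for Lhb. Its log2 fold change was 1.85 (SE 0.43, adjusted p = 0.0634, edgeR's quasi-likelihood test). The reads had been counted by strand, and the part of Ruvbl2 in the Lhb counts was not tested.

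The transcription factor and the receptor were at the limit of detection. Pou1f1 (chr16:65520511-65535005, plus strand) had 5, 1 and 0 counts across Bahd1-WT mice against 0, 1 and 6 across Bahd1-KO mice. Ghrhr (chr6:55376295-55388530, plus strand) had 5, 1 and 0 counts across Bahd1-WT mice against 0, 0 and 13 across Bahd1-KO mice. Only Bahd1-WT replicate 1 and Bahd1-KO replicate 3 exceeded 3 counts for either gene, the libraries in which Gh and Prl were highest. Their log2 fold changes were 0.51 (SE 1.29, adjusted p = 0.805) for Pou1f1 and 1.43 (SE 1.51, adjusted p = 0.527) for Ghrhr in edgeR's quasi-likelihood test.

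The libraries with high pituitary genes were not alike in every gene. The ratio of Bahd1-KO replicate 3 to Bahd1-WT replicate 1 was 4.14 for Gh (95% interval 3.76 to 4.57), 2.13 for Pomc (1.74 to 2.61) and 1.20 for Prl (1.08 to 1.33). It was 0.864 for Cga (0.636 to 1.17) and 0.645 for Fshb (0.363 to 1.11), intervals that include 1, and 0.211 for Tshb (0.0539 to 0.598). It was 4.11 for Ghrhr (1.37 to 14.7, from 13 against 5 counts), 2.90 for Lhb (0.982 to 9.54) and 1.90 for Pou1f1 (0.482 to 7.86). Gh had the highest value and Tshb the lowest. The wide Ghrhr interval overlapped those of Pomc, Lhb and Pou1f1, so its place in the order was not beyond counting error. Each value compares 1 mouse with 1 mouse, so these ratios describe these libraries and carry no test of genotype.

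Levels per kilobase of annotated exon allow the genes to be ordered within a library. In Bahd1-WT replicate 1 the order was Gh (7.34 CPM per kilobase), Prl (6.43), Cga (1.47), Pomc (1.42), Fshb (0.335), Lhb (0.0967), Tshb (0.0720), Ghrhr (0.0157) and Pou1f1 (0.0140). In Bahd1-KO replicate 3 it was Gh (30.4 CPM per kilobase), Prl (7.69), Pomc (3.01), Cga (1.27), Lhb (0.280), Fshb (0.216), Ghrhr (0.0644), Pou1f1 (0.0266) and Tshb (0.0152). In Bahd1-WT replicate 1 counting intervals overlapped for Gh with Prl, Cga with Pomc, Lhb with Tshb and with Ghrhr, and Ghrhr with Pou1f1. In Bahd1-KO replicate 3 they overlapped for Lhb with Fshb and among Ghrhr, Pou1f1 and Tshb. Gh, Prl, Pomc, Cga and Fshb were thus above the transcription factor and the receptor in both libraries beyond counting error. The per-length ratio of Prl to Gh was 0.877 in Bahd1-WT replicate 1 (0.787 to 0.976) and 0.253 in Bahd1-KO replicate 3 (0.230 to 0.278).

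Set against all genes, the spread of Gh and Prl within a genotype was among the widest. On the log2(CPM + 0.5) scale, the range over 3 libraries was 3.77 for Gh in Bahd1-WT and 5.74 in Bahd1-KO, and 4.26 and 4.44 for Prl. For Gh, 8 of 23975 tested genes (0.0334%) had at least that range among Bahd1-WT mice and 4 (0.0167%) among Bahd1-KO mice, the gene itself included. For Prl the corresponding numbers were 4 and 10, for Pomc 61 and 52, and for Cga 53 and 661. The added 0.5 CPM compresses low levels on this scale, and Fshb ranged over 1.05 and 0.76, with Tshb, Lhb, Pou1f1 and Ghrhr below that.

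**Figure D2:**
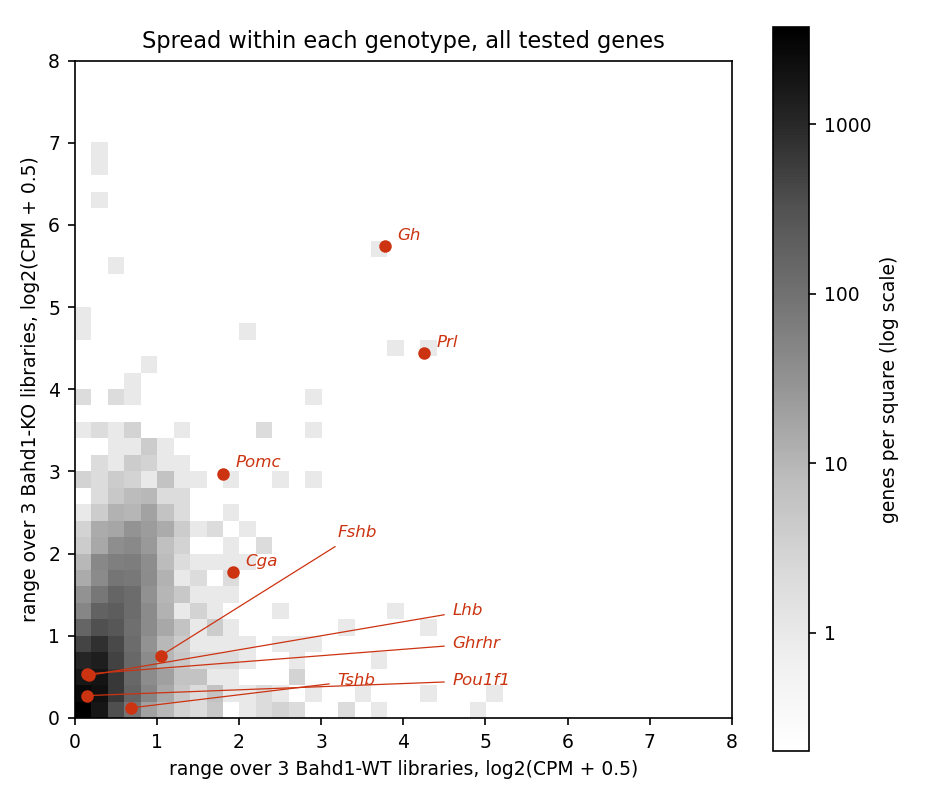
Range of log2(CPM + 0.5) over the 3 Bahd1-WT libraries (x axis) and over the 3 Bahd1-KO libraries (y axis), with the number of the 23975 tested genes per square in grey (log scale) and the 9 pituitary genes in red. Gh and Prl lie far from the bulk of the genes on both axes, at 3.77 and 5.74 for Gh and at 4.26 and 4.44 for Prl.

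The comparison of genotypes asked whether loss of Bahd1 changed these genes in the adult brain. None of the 9 was called (adjusted p under 0.05 and at least 2-fold, edgeR's quasi-likelihood test), beside 0.00834% of the 23975 genes tested. At an unadjusted p under 0.05 the count was 1, Lhb, which was higher in Bahd1-KO, beside 31.8% of all genes (19.9% higher in Bahd1-KO), and DESeq2 called 0 of the 9 with or without a prior on fold changes, beside 10.5% and 11.5% of all genes, but gave no adjusted p for 5 of them. The fold change was above 1 in 6 genes and below 1 in 3, and the median log2 fold change was 0.51. Of all genes tested, 46.6% had a log2 fold change above 0. Libraries of the genotypes overlapped for 8 of the 9 genes, whereas they did not overlap for 39.8% of all genes.

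The direction of several fold changes turned with the library left out. Some of these genes, but not Prl and Cga, passed the filter on summed counts only through the remaining high library. Without Bahd1-WT replicate 1, 8 genes still had enough counts, but Gh, Fshb, Ghrhr and Tshb passed the filter only through Bahd1-KO replicate 3. Their direction in this setting is therefore not a separate result. Gh then reached 9.87 (SE 3.80, adjusted p = 0.170) and Prl 6.07 (SE 2.33, adjusted p = 0.169). Without Bahd1-KO replicate 3, 7 genes had enough counts, Gh, Fshb and Tshb only through Bahd1-WT replicate 1, and Gh was at -7.88 (SE 3.48, adjusted p = 0.196) and Prl at -4.02 (SE 2.35, adjusted p = 0.296). Pomc (3.15 and 1.01) and Lhb (3.05 and 2.38) were above 0 in both settings, and Gh, Prl, Tshb, Cga and Fshb were not. None of the 9 genes was called in either setting by edgeR's quasi-likelihood test, beside 0% of all genes in both. The count at an unadjusted p under 0.05 was 5 without Bahd1-WT replicate 1 (Gh among them), beside 24.2% of all genes, and 1 without Bahd1-KO replicate 3, beside 27.3%. Gh was kept in the first setting only through Bahd1-KO replicate 3, and each library left out was one in which most of these genes were high. These counts therefore carry no support for an effect of genotype. The same limit holds for sizes. A log2 fold change of at least 1 was found for all 8 genes in the first setting, beside 16.9% of all genes. In the second, 5 of 7 were at -1 or lower, beside 7.40% of all genes, and 2 were at 1 or higher. Pou1f1 had too few counts in both settings and Ghrhr in the second.

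**Figure D3:**
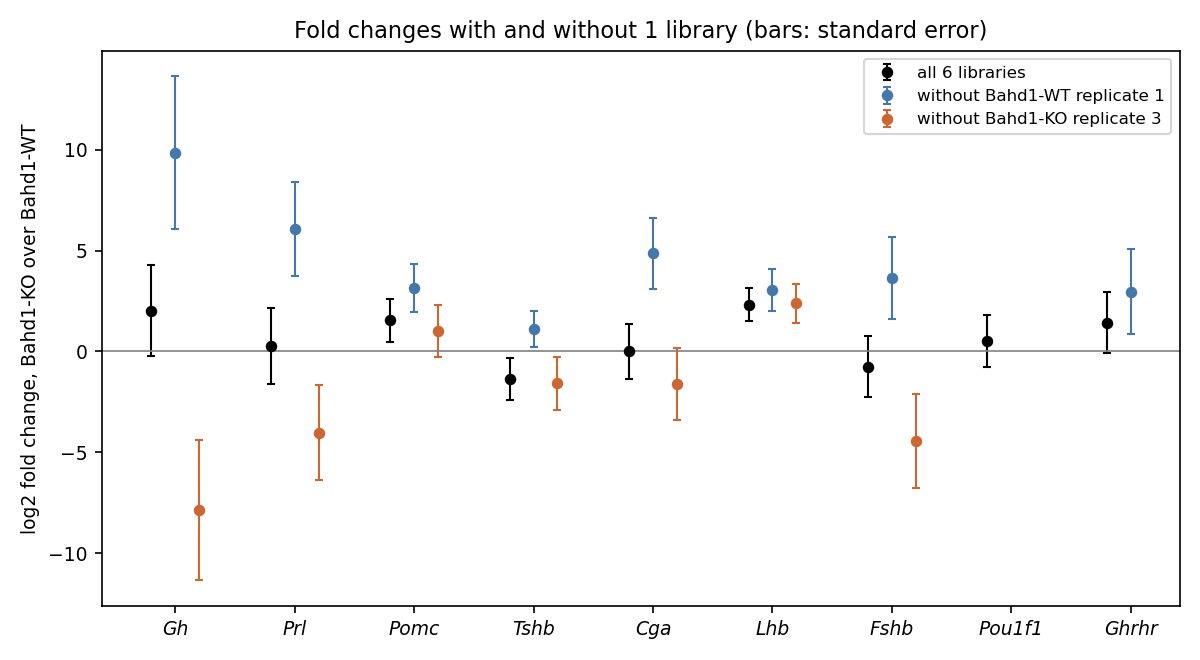
Log2 fold change of Bahd1-KO over Bahd1-WT (y axis) for each pituitary gene with all 6 libraries (black), without Bahd1-WT replicate 1 (blue) and without Bahd1-KO replicate 3 (orange), with bars of 1 standard error. Gh moves from 2.03 to 9.87 or -7.88, while Pomc and Lhb stay above 0, and points are absent where a gene had too few counts left.

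With both of these libraries left out together, 4 of the 9 genes kept enough counts and none was called, nor was any other gene of the table (0 calls). The log2 fold changes were 3.17 for Cga (adjusted p = 0.332), 3.09 for Lhb (adjusted p = 0.247), 2.56 for Pomc (adjusted p = 0.322) and 1.68 for Prl (adjusted p = 0.490) in edgeR's quasi-likelihood test. Here the reads of these genes came mainly from Bahd1-KO replicate 2. Cga, Prl and Lhb passed the filter on summed counts only through that library, so their direction is not a separate result. This setting was added after the levels had been seen.

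Over the 6 libraries, Gh varied closely with Prl (Pearson r = 0.97, Spearman rho = 0.93 on log2(CPM + 0.5)). Its values with Pou1f1 were higher (r = 0.98, rho = 1.00), but Pou1f1 had at most 6 counts in any library, and most of its ranks rest on counts of 0 and 1. The 9 genes were not held to the minimum mean of 10 counts set for other genes. The r of Gh was 0.93 with Ghrhr (at most 13 counts), 0.92 with Cga and 0.90 with Fshb. It was 0.70 with Pomc, 0.56 with Tshb and 0.21 with Lhb. Prl had an r of 0.98 with Cga and 0.97 with Fshb, and Pomc of 0.81 with Cga and 0.79 with Lhb. The points share the same 6 libraries, and those with Gh or Prl rest on Bahd1-WT replicate 1 and Bahd1-KO replicate 3, so they are given as a description without a test.

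Outside the 9 genes, the genes closest in pattern to Gh among 18774 with a mean of at least 10 counts included Adipor2, Arhgap31, Fras1 and Gm6133 (r from 0.97 to 0.98). Those closest to Prl were Arhgap31, Pofut1, C030005K06Rik, AC161165.3 and Lrch1 (r from 0.98 to 0.99), and those closest to Pomc were Atp11a, Rab7b, Ncoa3, Baz2a and Tbc1d2b (r from 0.98 to 0.99). Rank correlations were lower for some of them, such as Gm6133 with Gh (rho = 0.52) and Pofut1 with Prl (rho = 0.49), and the differences were small beside those of the pituitary genes. Adipor2, a receptor for adiponectin, ranged from 144 to 163 CPM and Arhgap31, a GTPase-activating protein, from 46.9 to 57.4 CPM.

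Other genes of the pituitary gave a mixed picture. Of 12 transcription factors of pituitary development and cell identity, 10 could be tested and 0 were called, beside 0.00834% of all genes. A log2 fold change above 0 was found for 8, beside 46.6% of all genes, and the median was 0.55, against -0.06 over all genes. An unadjusted p under 0.05 was found for 4 of them, 2 higher and 2 (Neurod4 and Six6) lower, beside 31.8% of all genes, and DESeq2 called Lhx3 with its prior (10.5% of all genes) and Lhx3 and Gata2 without it (11.5%). The list was also expressed in brain, and its most abundant members included Gata2 (mean 4.49 CPM) and Pax7 (1.51 CPM), which were present in all 6 libraries. The corticotroph factor Tbx19 had 9, 1 and 0 counts across Bahd1-WT mice against 0, 7 and 6 across Bahd1-KO mice, above 1 count only in the 3 libraries in which Pomc was highest. Pitx1, a factor of the whole anterior pituitary, had 1, 0 and 0 counts across Bahd1-WT mice against 0, 14 and 0 across Bahd1-KO mice, and was thus found in Bahd1-KO replicate 2 and not in Bahd1-KO replicate 3. Hesx1, a factor of the embryonic gland, had at most 3 counts in any library. Lhx3, a factor of the pituitary and of motor neurons, had 30, 6 and 9 counts across Bahd1-WT mice against 20, 132 and 48 across Bahd1-KO mice (log2 fold change 2.26, SE 0.54, adjusted p = 0.0634, edgeR's quasi-likelihood test).

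Of 8 receptors by which releasing hormones act on pituitary cells, 0 were called, beside 0.00834% of all genes. Log2 fold changes above 0 were found for 4, beside 46.6% of all genes, and the median was 0.18. An unadjusted p under 0.05 was found for 3, beside 31.8% of all genes, and DESeq2 called Crhr1 and Sstr5 with its prior (10.5% of all genes) and also Sstr2 without it (11.5%). Drd2, Crhr1 and Trhr, all of which are also brain receptors, were the most abundant (means of 26.3, 12.9 and 12.5 CPM). Gnrhr, the gonadotroph receptor for gonadotropin-releasing hormone, had 5, 4 and 0 counts across Bahd1-WT mice against 0, 1 and 4 across Bahd1-KO mice. No library therefore held more than 5 counts of this gonadotroph marker. Nr5a1, a gonadotroph factor among the transcription factors above, had more, with 24, 4 and 8 counts across Bahd1-WT mice against 7, 37 and 7 across Bahd1-KO mice.

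Hypothalamic hormones act upstream of the pituitary and are made by brain neurons. Of 8 such genes 7 were tested and 0 were called, beside 0.00834% of all genes. All 7 had a log2 fold change above 0, beside 46.6% of all genes, with a median of 0.86. The unadjusted p was under 0.05 for 2 of them, Oxt and Avp, beside 31.8% of all genes, and DESeq2 called Avp with or without its prior, beside 10.5% and 11.5%. Their most abundant members were Sst (84.6 CPM), Trh (13.2 CPM) and Crh (5.66 CPM). Oxt, the oxytocin gene, had 6, 2 and 0 counts across Bahd1-WT mice against 5, 237 and 12 across Bahd1-KO mice, and Avp, the vasopressin gene, had 89, 21 and 17 counts against 43, 509 and 62. Both were highest in Bahd1-KO replicate 2, one of the libraries in which Pomc was high and Gh was at 1 count. The log2 fold changes were 4.75 for Oxt (SE 1.30, adjusted p = 0.0653) and 2.25 for Avp (SE 0.76, adjusted p = 0.0926) in edgeR's quasi-likelihood test.

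Among 6 neuropeptides of the arcuate nucleus and lateral hypothalamus, the regions that hold the Pomc neurons and their neighbours, 0 were called, beside 0.00834% of all genes. A log2 fold change above 0 was found for 5, beside 46.6% of all genes, and the median was 1.21. The unadjusted p was under 0.05 for 5 of them, 4 higher and 1 (Pmch) lower, beside 31.8% of all genes, and DESeq2 called Cartpt, Hcrt and Tac2 with or without its prior, beside 10.5% and 11.5%. Npy, Pmch and Cartpt were the most abundant (means of 44.9, 26.8 and 9.04 CPM). Agrp, a peptide of arcuate neurons that oppose the Pomc neurons, had 3, 4 and 2 counts across Bahd1-WT mice against 2, 25 and 4 across Bahd1-KO mice. Hcrt, the orexin precursor, had 38, 10 and 19 counts across Bahd1-WT mice against 16, 290 and 18 across Bahd1-KO mice. Cartpt, a peptide found in Pomc neurons, was at 5.27, 4.45 and 5.51 CPM across Bahd1-WT mice against 10.3, 20.1 and 8.65 CPM across Bahd1-KO mice (log2 fold change 1.36, SE 0.32, adjusted p = 0.0634, edgeR's quasi-likelihood test). Pmch, the precursor of melanin-concentrating hormone, went the other way, at 42.2, 28.4 and 29.7 CPM across Bahd1-WT mice against 25.0, 16.1 and 19.1 CPM across Bahd1-KO mice (log2 fold change -0.74, SE 0.23, adjusted p = 0.0821, edgeR's quasi-likelihood test). Agrp, Hcrt and Cartpt were highest in Bahd1-KO replicate 2, whereas in Bahd1-KO replicate 3 Agrp and Hcrt were close to the Bahd1-WT libraries. The part of hypothalamic tissue in the Pomc level of Bahd1-KO replicate 2 was not tested.

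**Figure D4:**
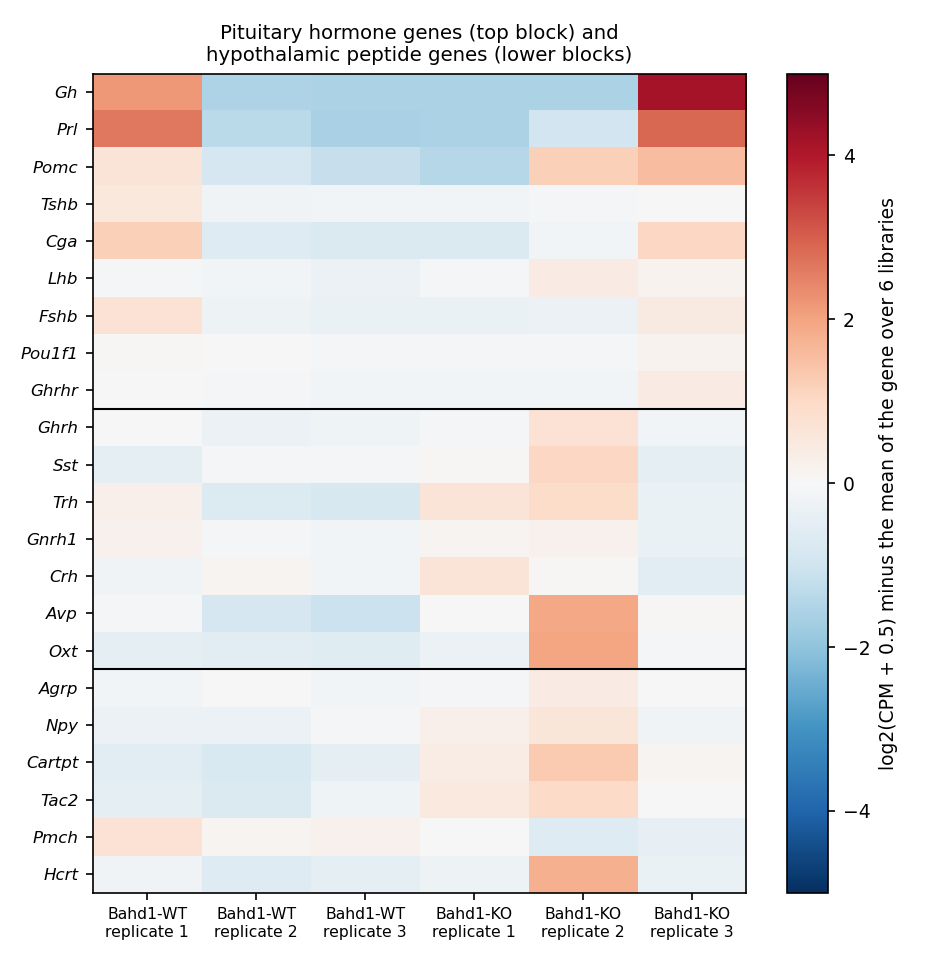
Log2(CPM + 0.5) of each gene minus its mean over the 6 libraries (colour scale, red above and blue below the mean) for the 9 pituitary genes (top block), 7 hypothalamic hormone genes (middle block) and 6 arcuate and lateral hypothalamic peptide genes (bottom block). Gh and Prl are highest in Bahd1-WT replicate 1 and Bahd1-KO replicate 3, while Avp, Oxt and Hcrt are highest in Bahd1-KO replicate 2, where Pomc is also high.

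Most genes that receive or process the hormones had reads in all libraries, the exception being Mc1r, a melanocortin receptor (0 counts in 3 libraries), while Fshr, the receptor for follicle-stimulating hormone, had at most 3 counts. Of 10 receptors of pituitary hormones 8 were tested and 0 were called. A log2 fold change above 0 was found for 2, beside 46.6% of all genes, and below 0 for 6, with a median of -0.27. Prlr and Ghr, the prolactin and growth hormone receptors, were the most abundant with Mc4r, and their log2 fold changes were -0.62 (adjusted p = 0.0967) and -0.51 (adjusted p = 0.137) in edgeR's quasi-likelihood test. Of 7 genes of growth hormone and prolactin signalling, led by Jak2, Stat5b and Igf1 (means of 77.3, 25.3 and 19.3 CPM), 0 were called, and the median was 0.14. Of 5 enzymes and chaperones that process the Pomc precursor, led by Cpe, Pcsk2 and Scg5 (1969, 347 and 310 CPM), 0 were called, and the median was -0.16. Over all genes 0.00834% were called and the median was -0.06. The unadjusted p in that test was under 0.05 for 3 of the 8 tested hormone receptors, 4 of the 7 signalling genes and 0 of the 5 processing genes, beside 31.8% of all genes, and DESeq2 called only Cish, a cytokine-induced inhibitor of signalling, among these 3 lists, beside 10.5% of all genes with its prior and 11.5% without it.

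Markers of other tissues were compared over the same libraries. The summed level of 6 lung epithelium markers was 114, 27.1 and 2.43 CPM in Bahd1-WT replicates 1 to 3 and 0.552, 1.43 and 0.933 CPM in Bahd1-KO, so that it was high in Bahd1-WT replicate 1 and not in Bahd1-KO replicate 3. The summed level of 5 red cell markers ran from 10.8 to 15.9 CPM in Bahd1-WT and from 15.1 to 92.6 CPM in Bahd1-KO, highest in Bahd1-KO replicate 2. That of 5 skeletal muscle markers ran from 1.13 to 1.57 CPM in Bahd1-WT and from 1.95 to 9.95 CPM in Bahd1-KO, also highest in that library. Choroid plexus markers (8 genes) summed to between 300.0 and 395 CPM in Bahd1-WT and between 477 and 1099 CPM in Bahd1-KO. Most of that sum was Ttr, the transthyretin gene (213 to 309 CPM in Bahd1-WT and 402 to 1018 CPM in Bahd1-KO), while 5 of the 8 markers had a log2 fold change below 0 and the median was -0.17. Over all genes 46.6% were above 0 and the median was -0.06. Olfactory (5 genes) and pineal markers (5 genes) summed to between 316 and 388 CPM and between 0.484 and 0.919 CPM over the 6 libraries. The olfactory sum was mostly Gnal, a G protein subunit also expressed in the striatum (269.9 to 365 CPM), whereas Omp, the marker of mature olfactory neurons, was at 3.98, 0.178 and 0.0682 CPM across Bahd1-WT mice against 8.71, 3.55 and 0.138 CPM across Bahd1-KO mice. None of the genes of these 6 lists was called by edgeR's quasi-likelihood test, beside 0.00834% of all genes. The unadjusted p was under 0.05 for 6 of 6 lung, 4 of 5 red cell, 4 of 5 muscle, 2 of 8 choroid plexus, 1 of 5 olfactory and 1 of 3 tested pineal markers, beside 31.8% of all genes, and DESeq2 with its prior called 5, 4, 2, 1, 0 and 0 of them, beside 10.5%. Asmt, which makes melatonin in the pineal gland, had at most 1 count in any library. The part of these tissues in the pituitary gene levels was not tested.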

How the data were processed

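RNA was sequenced from brain hemispheres of 3 Bahd1-WT and 3 Bahd1-KO mice. The deposited values were raw read counts per gene, for which the authors trimmed reads with cutadapt 1.11, aligned them to GRCm38 with STAR 2.5.0a and counted exon reads by strand with featureCounts 1.4.6-p3 (Ensembl 92); the supplementary methods also name another aligner. Each of the 6 columns was matched to a sample by its label.

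Genes with a summed count of at least 10 were fitted with edgeR 4.0.16 (TMM, quasi-likelihood test, genotype as the only term, Benjamini-Hochberg adjustment over all 23975 genes tested) in R 4.3.3. A gene was called at an adjusted p under 0.05 and at least 2-fold. DESeq2 1.42.0 was an alternative. The fitting code was tested on simulated data. With 3 mice per genotype, p-values measure the spread between these mice. Intervals are exact 95% intervals and, like the floor of 3 counts, cover counting error only. Positions and exon lengths came from GENCODE release 21 of the mouse on GRCm38.

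All 9 genes were named, with Bahd1, the 3 genes of highest mean CPM in each list, other list genes of known role and the 5 genes closest in pattern to Gh, Prl and Pomc. Some genes that this rule would name are not reported here. The genes and lists were chosen with earlier results of these data known. Alternatives were another scaling, filter or test, a replicate block, a GC and length offset, and leaving out libraries. No fold changes of the authors were used.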

Additional observations from a re-analysis of the deposited data

How the results depend on the processing

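The number of pituitary genes called was 0 under every alternative that kept all libraries and from 0 to 1 when 1 library was left out, the 1 being Lhb without Bahd1-KO replicate 1. Over all genes the number called was 2 and stayed 2 with DESeq2 size factors, upper-quartile factors or a filter of 1 CPM in 3 samples. It was 2007 with total counts, 2522 in DESeq2 with the prior and 2761 without it, 2770 with no filter beyond 1 count, 4 with the GC and length offset, 0 without Bahd1-WT replicate 1 and Bahd1-KO replicate 3 together, and from 0 to 3988 with 1 library left out. The cause was not tested. Replicate numbers did not pair the samples (correlations of same-numbered deviations of -0.644, -0.656 and -0.144), and the replicate block gave 7 calls alone and 9 with the GC and length offset, none of them a pituitary gene.

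The fold change of Cga turned above 0, to log2 values of 0.0226 (DESeq2 size factors), 0.0665 (total counts), 0.0108 (DESeq2 with the prior), 0.0651 (DESeq2 without it), 0.00417 (no filter beyond 1 count), 1.31 (replicate block), 0.16 (GC and length offset), 1.23 (that offset with the block) and 3.17 (both libraries left out). That of Fshb turned to 0.0624 with the offset and the block. With 1 library left out, log2 fold changes ran from -7.88 to 9.87 for Gh, -4.02 to 6.07 for Prl, 1.01 to 3.15 for Pomc, -1.83 to 1.11 for Tshb, -1.62 to 4.88 for Cga, 1.74 to 3.05 for Lhb, -4.45 to 3.65 for Fshb, -0.0366 to 1.10 for Pou1f1 and 0.88 to 2.97 for Ghrhr. Prl was below 0 in 3 of these 6 settings, the GC and length offset gave 0.62 for Lhb and 0.26 for Pomc (0.24 with the block), and the block gave 0.37 for Gh and -0.57 for Tshb (-0.23 with the offset).

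The ratio of the highest to the lowest library stayed within its counting interval under other scalings (338 to 384 for Gh and 460 to 649 for Prl in Bahd1-KO). With 1 library left out it ran from 155 to 391 for Gh, 2.77 to 221 for Prl and 2.01 to 10.5 for Pomc in Bahd1-WT, and from 380 to 2495 for Gh, 12.8 to 471 for Prl and 1.33 to 57.6 for Pomc in Bahd1-KO. For Gh this leaves out the settings without Bahd1-WT replicate 1 or Bahd1-KO replicate 3. There no remaining library of that genotype exceeded 3 counts, so no ratio was taken. The Gh values of 391 and 2495 are ratios to a library with 1 count. They are not on the scale of the values of 155 and 380, which are set against 3 counts. Depth limits Pou1f1, Ghrhr, Tshb and Lhb, which rest on 13 to 53 counts over all libraries, and the filter of 1 CPM in 3 samples left only Pomc to test.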

Other observations

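A search made after the levels were seen asked which of the 23975 tested genes were at least 5-fold higher in both Bahd1-WT replicate 1 and Bahd1-KO replicate 3 than in each of the other libraries, with libraries under 3 counts set to that floor. There were 4, the hormone genes Gh, Prl and Fshb and in addition Bpifa6, a gene of the BPI fold family on chromosome 2. Bpifa6 had 642, 1 and 0 counts across Bahd1-WT mice against 0, 2 and 43 across Bahd1-KO mice (log2 fold change -3.23, SE 1.96, adjusted p = 0.274, edgeR's quasi-likelihood test). Its level was thus higher in Bahd1-WT replicate 1 (7.02 CPM) than in Bahd1-KO replicate 3 (0.743 CPM), the reverse of Gh.

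Prl has a large family of paralogs known from the placenta. Of 25 such genes in the table, 20 had 0 counts in every library and the highest count of any was 13, against 829 for Prl.

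Omp, the olfactory marker protein gene, also differed widely between single libraries of each genotype, with 364, 11 and 5 counts across Bahd1-WT mice against 379, 338 and 8 across Bahd1-KO mice. It was high in Bahd1-WT replicate 1, as Gh was, and low in Bahd1-KO replicate 3, where Gh was highest.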
